A study of Mus musculus with 6 samples.

Results

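The 28 genes described here make, sense, move and esterify cholesterol, and were read in hepatocytes sorted by the activity of the Axin2 promoter. They were taken from the deposited count table by gene symbol. Of the 28, 27 were listed under their current symbol and 1, Msmo1, under the older symbol Sc4mol, out of 17275 genes in all. Among them 19 are enzymes of the synthesis pathway (8 from acetyl-CoA to the isoprenoid diphosphates, 3 from these to lanosterol, and 8 from lanosterol to cholesterol). The other 9 are 4 sensors and regulators of sterol level, 3 genes of uptake and transport, and 2 esterifying enzymes.

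Cholesterol is built from acetyl-CoA through mevalonate, farnesyl diphosphate, squalene and lanosterol. When sterols in the endoplasmic reticulum fall, the escort protein Scap carries the membrane-bound transcription factor encoded by Srebf2 to the Golgi, where it is cut free to switch on the genes of synthesis and uptake. When sterols are high, the Insig proteins hold Scap back. The liver supplies cholesterol for lipoproteins and bile acids, and its hepatocytes differ in gene expression with their distance from the central and portal veins.

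The samples were hepatocytes of C57BL/6 mice carrying Axin2rtTA and TetO-H2B-GFP, a pair of transgenes by which the Axin2 promoter drives a doxycycline-dependent activator and this switches on a green fluorescent histone. Age was 8 weeks in the protocol and postnatal day 63 in the sample labels. All mice, also those behind the negative libraries, carried both transgenes and drank doxycycline for 7 days. After non-parenchymal cells had been removed, the hepatocytes were sorted into fluorescent cells (labelled Axin2-positive, 3 libraries) and non-fluorescent cells (labelled Axin2-negative, 3 libraries). Each of 3 sequencing indexes occurred once in each group, and the libraries are numbered by it. Libraries of the same number are called a pair. Whether each library came from its own mouse, or from pooled mice, the labels do not say. P-values therefore measure only the spread between these libraries. That spread spans both sexes, by the genes given below, and may otherwise be technical.

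The libraries held 75882611 to 103386648 reads assigned to genes. Levels are given as CPM, the read count of a gene scaled to a common library total, with totals adjusted by the TMM method. All 8 hepatocyte markers examined were measured, with a summed level of 95177 to 185473 CPM across libraries labelled Axin2-positive and 89769 to 183653 CPM in those labelled Axin2-negative. Axin2 itself was at 2.40, 22.6 and 24.2 CPM in libraries 1, 2 and 3 labelled Axin2-positive and at 3.04, 3.75 and 5.75 CPM in those labelled Axin2-negative 1, 2 and 3. In pair 1 the gene that drove the sort was thus no higher in the library labelled Axin2-positive 1 than in its partner, against that library's label, and every direction drawn from it carries this limit. In both libraries of pair 2 Ddx3y, a gene of the Y chromosome, was read (90.8 and 84.1 CPM) and Xist, the transcript of the silenced X chromosome, almost not (0.0507 and 0.0622 CPM). In the libraries of pairs 1 and 3 Ddx3y stayed at or below 0.0309 CPM and Xist lay between 368 and 606 CPM. Pair 2 thus had the expression of male mice and the other pairs that of female mice.

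Promoter windows of 5 members are shown because the first 4 had the largest differences within pair 2 (log2 above 1, as for 3.41% of all genes) and the last, Insig1, encodes a regulator known to answer to the same transcription factor but was lower in that pair. Each runs from 250 bases before to 50 bases after the start of the gene, 5′ to 3′ on the strand of the gene, from RefSeq on GRCm38.p6. Capitals mark the core of the sterol regulatory element (TCACNCCAC or its reverse complement GTGGNGTGA) and the CCAAT box (CCAAT or ATTGG), the binding sequence of the factor NF-Y, a known partner at sterol-controlled promoters. The windows lie at chr13:119690101-119690400 (Hmgcs1, plus strand), chr8:64733529-64733828 (Msmo1, minus strand), chr5:4104648-4104947 (Cyp51, minus strand), chr8:122443373-122443672 (Mvd, minus strand) and chr5:28071162-28071461 (Insig1, plus strand).
Hmgcs1: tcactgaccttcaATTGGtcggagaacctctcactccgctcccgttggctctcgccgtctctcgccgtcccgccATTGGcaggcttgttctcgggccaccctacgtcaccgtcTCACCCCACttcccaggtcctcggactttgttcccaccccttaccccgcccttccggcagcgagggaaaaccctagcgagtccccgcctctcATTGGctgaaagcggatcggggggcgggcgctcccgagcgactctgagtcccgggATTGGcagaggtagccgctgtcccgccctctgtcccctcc
Msmo1: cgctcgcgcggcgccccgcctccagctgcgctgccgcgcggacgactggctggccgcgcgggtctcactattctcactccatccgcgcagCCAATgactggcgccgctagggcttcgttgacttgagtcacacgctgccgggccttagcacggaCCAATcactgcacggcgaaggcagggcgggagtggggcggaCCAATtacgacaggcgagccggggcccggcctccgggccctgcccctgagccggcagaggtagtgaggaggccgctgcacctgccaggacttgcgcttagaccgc
Cyp51: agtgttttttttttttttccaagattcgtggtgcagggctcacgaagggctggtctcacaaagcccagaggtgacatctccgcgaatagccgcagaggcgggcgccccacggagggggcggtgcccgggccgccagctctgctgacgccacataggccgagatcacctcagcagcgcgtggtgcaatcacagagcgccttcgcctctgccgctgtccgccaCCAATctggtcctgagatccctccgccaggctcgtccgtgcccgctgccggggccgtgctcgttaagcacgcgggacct
Mvd: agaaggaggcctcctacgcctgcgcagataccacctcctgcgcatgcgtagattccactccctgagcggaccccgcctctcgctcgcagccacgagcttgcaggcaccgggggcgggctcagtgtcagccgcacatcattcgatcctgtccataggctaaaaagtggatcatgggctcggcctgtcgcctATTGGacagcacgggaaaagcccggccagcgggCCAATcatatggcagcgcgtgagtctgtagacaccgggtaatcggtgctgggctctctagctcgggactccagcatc
Insig1: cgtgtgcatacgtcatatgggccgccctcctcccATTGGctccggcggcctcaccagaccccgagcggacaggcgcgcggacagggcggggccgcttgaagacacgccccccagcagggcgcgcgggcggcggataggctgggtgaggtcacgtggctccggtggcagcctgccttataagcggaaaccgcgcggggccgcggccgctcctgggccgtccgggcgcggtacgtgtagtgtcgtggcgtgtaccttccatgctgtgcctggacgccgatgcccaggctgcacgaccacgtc

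A window was on file for 23 of the 28 members. Of these 23, 21 (91.3%) held a CCAAT box on either strand in at least 1 window, compared with 41.1% of the 27025 genes with a window and 43.6% of the 8838 genes with a window that were also tested for expression or were members. The GC box (GGGCGG or CCGCCC), which binds Sp1, was found in 19 members (82.6%), compared with 38.2% of all genes and 67.4% of those tested. The sterol element core was found in 1 member, Hmgcs1, as TCACCCCAC with its first base 137 bases before the start site, and in 1.44% of all genes. Only TCACNCCAC and its reverse complement were searched, not variants, so a window without a match is not shown to lack a sterol element. No matches of different motifs overlapped in the members' windows. The CCAAT box was found both in enzyme genes and in Insig1, and a match is a description of letters, not of binding.

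The design compares hepatocytes with and without an active Axin2 promoter. Of the 28 members, 27 passed the expression filter and were tested among 12343 genes. Over all 6 libraries 0 of the 27 were called at an adjusted p under 0.05, as were 0% of all genes in each direction (edgeR quasi-likelihood test, Benjamini-Hochberg adjustment), and 0 members had an unadjusted p under 0.05, where 279 of all genes did. The same fit called 0 of 8 pericentral hepatocyte markers, Axin2 among them, and 0 of 8 periportal markers. Its 0 calls therefore do not show equal levels. DESeq2, limma-voom and the edgeR fit with the pair as a block likewise called 0 members and 0 genes, while 432, 238 and 1132 genes reached an unadjusted p under 0.05. When the library labelled Axin2-positive 1 was left out, edgeR called 0 members, 0.00796% of all genes higher and 0.0398% lower. The log2 fold change was above 0 for 18 of 27 members, with a median of 0.21, compared with -0.0047 over all genes tested. Standard errors ran from 0.16 (Soat2) to 1.499 (Mylip). The levels of the 2 groups overlapped for all 27 members, while 3.44% of all genes had 3 libraries labelled Axin2-positive above the other 3 and 3.77% had them below.

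Within pairs, the 19 synthesis enzymes showed a common pattern. In pair 2 all 19 had higher levels in the library labelled Axin2-positive, as had 49.1% of all genes, by 0.11 to 1.47 on the log2 scale, with a median of 0.71. In pair 3, 16 of 19 were higher (49.5% of all genes), with differences between -0.16 and 0.50, with a median of 0.24. In pair 1, 8 of 19 were higher (50.2% of all genes), and all differences lay between -0.06 and 0.04. Of the 27 members 0 differed there by more than 0.5 or 1 upward or 0.5 downward, as did 2.26%, 0.275% and 2.16% of all genes. A log2 difference above 0.5 was found for 15 of 19 enzymes (78.9%) in pair 2, compared with 9.6% of all genes, and for 1 of 19 (5.26%) in pair 3, compared with 7.65% of all genes. Pairs 2 and 3 were both higher for 16 of 19 enzymes (84.2%) and for 35.3% of all genes. The difference was larger in pair 2 than in pair 3 for 19 of 19 enzymes, a share that was not computed for all genes. Over all genes, too, differences above 0.5 were more frequent in pair 2 than in pair 3 (9.6% and 7.65%). Each within-pair value compares 1 library with 1 library and has no replicate check, and whether pair 2 differs from pair 3 was not tested.

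**Figure D1:**
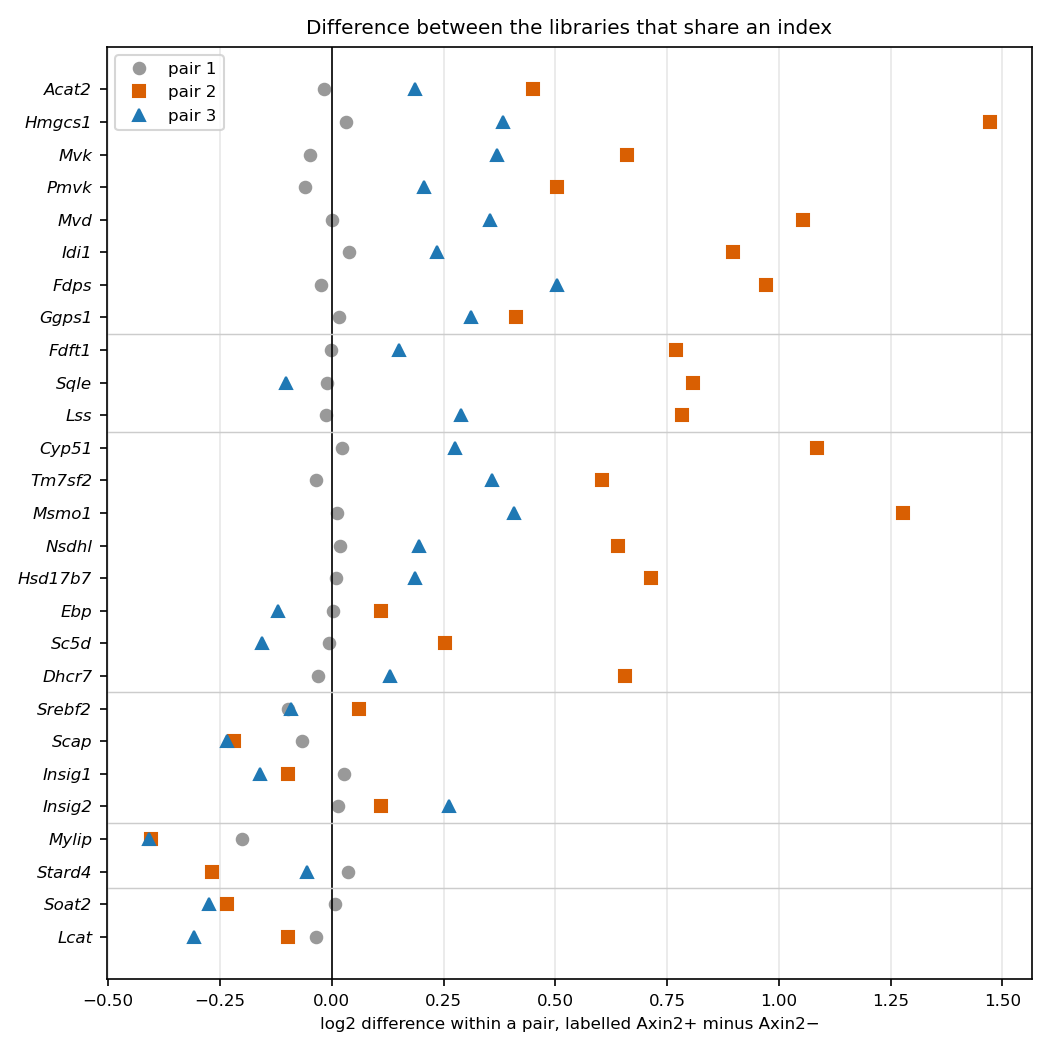
Log2 difference in CPM between the library labelled Axin2-positive and the library labelled Axin2-negative of the same index (x axis) for 27 tested members (rows, grouped by role from synthesis enzymes at the top to esterifying enzymes at the bottom). Grey circles are pair 1, orange squares pair 2 and blue triangles pair 3. All 19 enzymes of the upper 3 groups lie above 0 in pair 2, while pair 1 stays between -0.06 and 0.04 for them.

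The lowest and the highest levels of the enzymes fell mostly in 2 libraries. For 18 of 19 enzymes (94.7%) the lowest of the 6 libraries was the one labelled Axin2-negative 2, as for 17.7% of all genes. For 14 of 19 (73.7%) the highest was the one labelled Axin2-positive 3, as for 15.5% of all genes. The summed level of the 19 enzymes was 5367, 4383 and 6396 CPM in libraries 1, 2 and 3 labelled Axin2-positive (5382 ± 1006, SD, n = 3) and 5343, 2433 and 5510 CPM in those labelled Axin2-negative 1, 2 and 3 (4429 ± 1730, SD, n = 3). The library labelled Axin2-positive 2 thus lay below all 4 libraries of pairs 1 and 3 and above its partner alone. Leaving out the library labelled Axin2-negative 2 brought the median log2 fold change of the 27 members from 0.21 to -0.063, with 10 of 19 enzymes above 0 in place of 17.

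**Figure D2:**
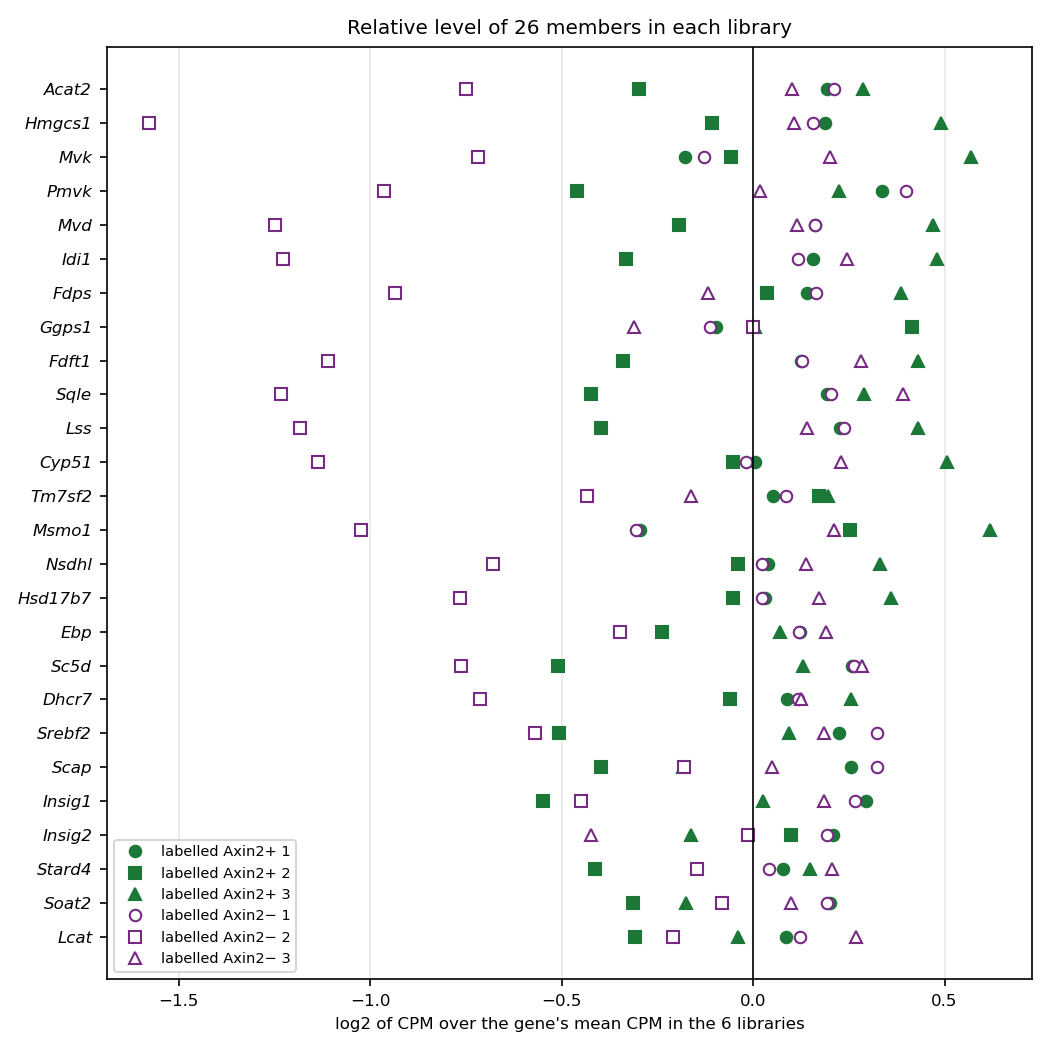
Level of 26 members in each library, as the log2 of the CPM over the mean CPM of that gene in the 6 libraries (x axis), with 1 row per gene. Filled green symbols are libraries labelled Axin2-positive and open purple symbols those labelled Axin2-negative, with circles, squares and triangles for pairs 1, 2 and 3. The open squares (labelled Axin2-negative 2) are the lowest values for 18 of 19 enzymes from Acat2 to Dhcr7. Mylip, with 2 to 187 reads, is left out.

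The first enzymes lead from acetyl-CoA to mevalonate and on to the isoprenoid diphosphates. Hmgcs1, which encodes the cytosolic HMG-CoA synthase (chromosome 13, 119690379 to 119708260, GRCm38, GENCODE), was at 1185, 967 and 1463 CPM in libraries 1, 2 and 3 labelled Axin2-positive and at 1159.8, 348 and 1121 CPM in those labelled Axin2-negative. Its low value was that of the library labelled Axin2-negative 2. The groups overlapped, also without pair 1: the library labelled Axin2-positive 2 (967 CPM) lay below that labelled Axin2-negative 3 (1121 CPM). Within pair 2 the level was 2.77-fold higher in the library labelled Axin2-positive, the largest of the 27 tested members, and within pair 3 it was 1.305-fold higher. Over 6 libraries the means were 1205 ± 249 and 876 ± 458 CPM (SD, n = 3 each), a log2 fold change of 0.46 (SE 0.47, edgeR adjusted p = 0.999).

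Acat2, the cytosolic thiolase that joins acetyl-CoA units, was at 95.7, 68.0 and 102.1 CPM against 96.8, 49.8 and 89.8 CPM in libraries 1, 2 and 3 (labelled Axin2-positive, then Axin2-negative). Mvk, the mevalonate kinase gene, gave 34.0, 37.0 and 57.0 CPM against 35.2, 23.4 and 44.2 CPM. Pmvk, whose product adds the next phosphate, differed by -0.06, 0.50 and 0.21 on the log2 scale in pairs 1, 2 and 3. All 3 had their lowest value in the library labelled Axin2-negative 2. Mvd, which encodes the decarboxylase that yields isopentenyl diphosphate, stood at 47.3, 37.0 and 58.6 CPM against 47.3, 17.8 and 45.9 CPM, a 2.08-fold difference in pair 2 and 1.28-fold in pair 3. For Idi1, the isomerase of that product, levels were 590.3, 421 and 739 CPM against 575, 226 and 628 CPM. Both genes overlapped between the groups, with log2 fold changes of 0.37 (SE 0.39) and 0.29 (SE 0.42) and an edgeR adjusted p of 0.999.

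Fdps makes farnesyl diphosphate, the last intermediate shared with protein prenylation, dolichol and ubiquinone. It stood at 432, 401 and 512 CPM in libraries labelled Axin2-positive (448 ± 57.2, SD, n = 3) and at 439, 205 and 361 CPM in those labelled Axin2-negative (335 ± 119, SD, n = 3). Its log2 difference in pair 3, 0.50, was the largest of the 27 members there. The log2 fold change over 6 libraries was 0.42 (SE 0.29, edgeR adjusted p = 0.999). Ggps1, whose product feeds prenylation in place of sterols, was at 5.54, 7.89 and 5.94 CPM against 5.48, 5.92 and 4.78 CPM. It was the enzyme gene whose lowest library was not the one labelled Axin2-negative 2, and the low value was that of the library labelled Axin2-negative 3.

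From farnesyl diphosphate, squalene synthase (Fdft1), squalene epoxidase (Sqle) and lanosterol synthase (Lss) commit carbon to sterols. Fdft1 was at 260.4, 189 and 322 CPM in libraries 1, 2 and 3 labelled Axin2-positive and at 261, 111 and 290.4 CPM in those labelled Axin2-negative. Lss gave 110.0, 71.3 and 127 CPM against 111, 41.4 and 104 CPM. The differences in pair 2 were close to each other for the 3 genes, at 0.77, 0.81 and 0.78 on the log2 scale for Fdft1, Sqle and Lss. In pair 3 they were 0.15, -0.10 and 0.29, so Sqle had the opposite sign there.

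After lanosterol, Cyp51, the lanosterol demethylase, was at 340.4, 327 and 482 CPM in libraries 1, 2 and 3 labelled Axin2-positive and at 335, 154 and 398 CPM in those labelled Axin2-negative. Msmo1, the methylsterol monooxygenase that acts on later intermediates, gave 268, 393 and 506 CPM against 266, 162 and 381 CPM. It was the gene with the largest log2 fold change of the 27 over 6 libraries with the group alone (0.53, SE 0.37, edgeR adjusted p = 0.999). With the pair as a block, Hmgcs1 had a larger value (0.62) than Msmo1 (0.56). Msmo1 differed 2.42-fold in pair 2 and 1.33-fold in pair 3. Both libraries of pair 1 lay among its low values, between the libraries of pair 2. Tm7sf2, a sterol reductase gene, stood at 168, 183 and 186 CPM against 173, 120.3 and 145 CPM. Its means were 179 ± 9.44 and 146 ± 26.2 CPM (SD, n = 3 each). The log2 fold change of 0.29 (SE 0.16) had the lowest unadjusted p of the 27 members, 0.112, with an adjusted p of 0.999 in the edgeR fit with the group alone.

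Nsdhl and Hsd17b7, whose products remove methyl groups together with Msmo1, had similar differences. For Nsdhl levels were 133, 126 and 163 CPM against 131, 80.8 and 142 CPM, and for Hsd17b7 103, 96.8 and 129 CPM against 102, 59.0 and 113 CPM. The last steps differed among themselves. Dhcr7, the reductase that completes cholesterol in one of the branches, was higher by 0.65 in pair 2 and 0.13 in pair 3 on the log2 scale. Ebp, a sterol isomerase gene, differed by 0.11 and -0.12, and Sc5d, a sterol desaturase gene, by 0.25 and -0.16. Ebp and Sc5d thus had small differences of opposite sign in pairs 2 and 3, and their log2 fold changes over 6 libraries were -0.01 (SE 0.19) and -0.01 (SE 0.35).

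**Figure D3:**
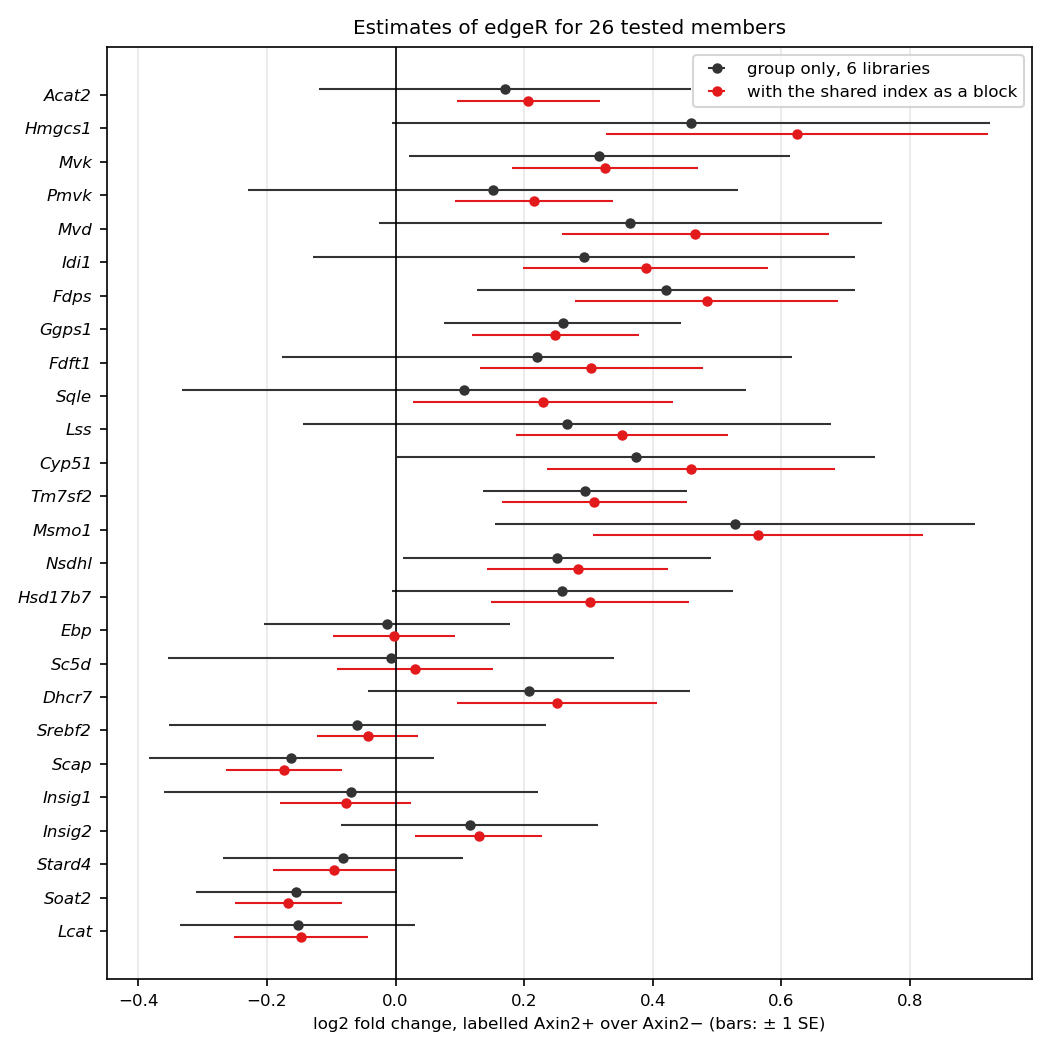
Log2 fold change of 26 members, labelled Axin2-positive over Axin2-negative (x axis, bars ± 1 SE), from edgeR over 6 libraries with the group alone (black) and with the pair as a block (red). The largest values are those of Msmo1 (0.53) and Hmgcs1 (0.46) with the group alone, and no member passed an adjusted p of 0.05 in either fit. Mylip is left out because of its few reads.

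The 4 sensors and regulators had small differences of mixed sign. Srebf2, the transcription factor gene, was at 103, 61.9 and 94.0 CPM in libraries 1, 2 and 3 labelled Axin2-positive and at 110.1, 59.4 and 100.1 CPM in those labelled Axin2-negative. Both libraries of pair 2 were low and close to each other, and the within-pair differences were -0.10, 0.06 and -0.09 on the log2 scale. Scap, the escort, differed by -0.07, -0.22 and -0.23. Insig1 differed by 0.03, -0.10 and -0.16 and Insig2, the other retention protein, by 0.01, 0.11 and 0.26. Over 6 libraries the log2 fold changes of Srebf2, Scap, Insig1 and Insig2 were -0.06 (SE 0.29), -0.16 (SE 0.22), -0.07 (SE 0.29) and 0.12 (SE 0.20).

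A ratio of reads within a library does not depend on how libraries are scaled. The 19 enzymes together had 5.57, 8.16 and 8.00 reads per read of Insig1 in libraries 1, 2 and 3 labelled Axin2-positive, and 5.65, 4.23 and 6.16 in those labelled Axin2-negative. This ratio differed by a factor of 0.985, 1.93 and 1.298 in pairs 1, 2 and 3. For Hmgcs1 alone it was 1.23, 1.80 and 1.83 reads per read of Insig1 against 1.23, 0.606 and 1.25. The libraries labelled Axin2-positive 2 and 3 had the highest values of both ratios, and the library labelled Axin2-negative 2 the lowest. Insig1 was chosen for this ratio after its values had been seen.

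**Figure D4:**
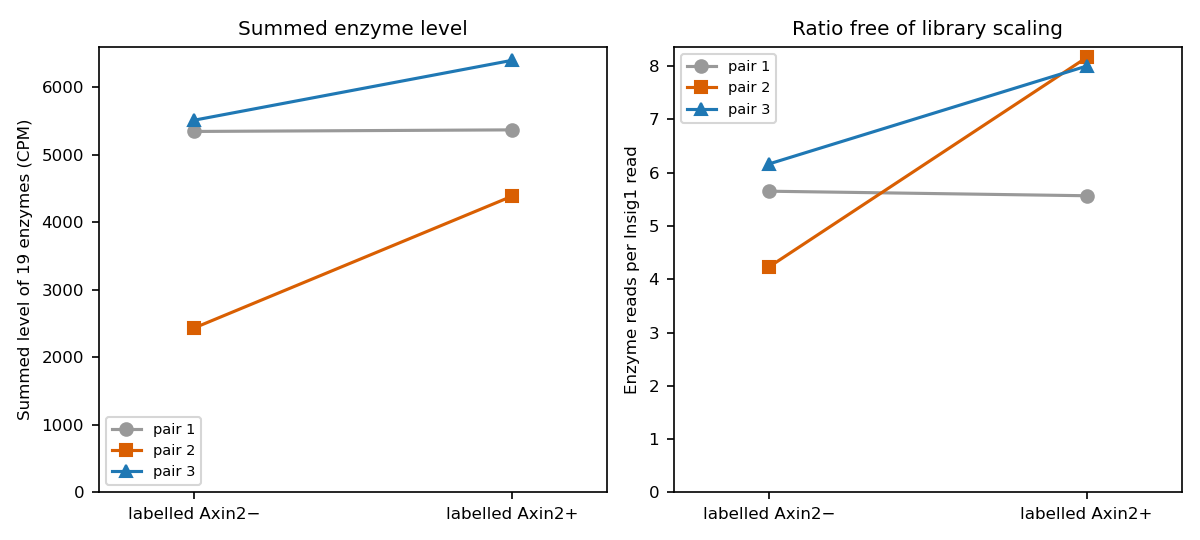
Left, summed CPM of the 19 synthesis enzymes in each library (y axis, from 0), and right, reads of these enzymes per read of Insig1 (y axis, from 0), with lines joining the libraries of a pair. The summed level is 2433 and 4383 CPM in the libraries of pair 2 (labelled Axin2-negative, then Axin2-positive), 5510 and 6396 CPM in pair 3, and 5343 and 5367 CPM in pair 1.

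Uptake, transport and esterification genes had small or opposite differences. Stard4, which encodes a carrier of cholesterol through the cytosol, differed by 0.04, -0.27 and -0.06 on the log2 scale in pairs 1, 2 and 3. Soat2, the enzyme that esterifies cholesterol for storage and lipoproteins, was at 48.9, 34.2 and 37.7 CPM against 48.7, 40.3 and 45.6 CPM. Lcat, the secreted plasma acyltransferase, differed by -0.04, -0.10 and -0.31. Soat2 and Lcat were thus lower in the library labelled Axin2-positive of pairs 2 and 3, with log2 fold changes over 6 libraries of -0.15 (SE 0.16) and -0.15 (SE 0.18) and an edgeR adjusted p of 0.999. Mylip, a ubiquitin ligase that marks lipoprotein receptors for breakdown, had 63, 2 and 137 reads in libraries 1, 2 and 3 labelled Axin2-positive and 72, 4 and 187 in those labelled Axin2-negative, too few in pair 2 to compare. Npc1l1, the sterol importer, had 4, 0 and 0 reads against 0, 0 and 1 and was not tested. Among the tested members that are not synthesis enzymes, Mylip aside, Scap, Insig1, Stard4, Soat2 and Lcat were lower in both pair 2 and pair 3, as were 36.5% of all genes, and Insig2 was higher in both.

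Levels between genes can be compared only per length, and the authors' deposited table gives FPKM values per transcript for each group, with no replicate values. Its group labelled Axin2-positive includes the library labelled Axin2-positive 1, in which Axin2 goes against the label. Summed over transcripts, the authors' deposited table placed Hmgcs1 (363 in the group labelled Axin2-positive and 231 in that labelled Axin2-negative), Fdps (357 and 264), Sc5d (349 and 311), Lcat (330 and 368) and Insig1 (300.3 and 286) highest among the members. Hmgcs1 was the first of the 28 in the former group and the fifth in the latter, where Lcat was the first. At the lower end of the authors' deposited table stood Srebf2 (22.2 and 23.7), Soat2 (18.99 and 21.5), Ggps1 (2.41 and 1.96) and Mylip (0.312 and 0.423). All 19 enzymes had the higher FPKM in the group labelled Axin2-positive in the authors' deposited table, and 5 of the 28 members the lower. The share of all transcripts with the higher FPKM in the group labelled Axin2-positive was not computed. In the edgeR fit of the counts over 6 libraries 17 of the 19 enzymes were above 0, with Ebp and Sc5d at -0.01. Among 32 member transcripts tested in the authors' deposited table, 0 had a q-value under 0.05, compared with 0.701% of all tested transcripts, and the smallest p-value was 0.0536, for Msmo1. Since these values rest on the same libraries, they are no further support for a direction.

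**Figure D5:**
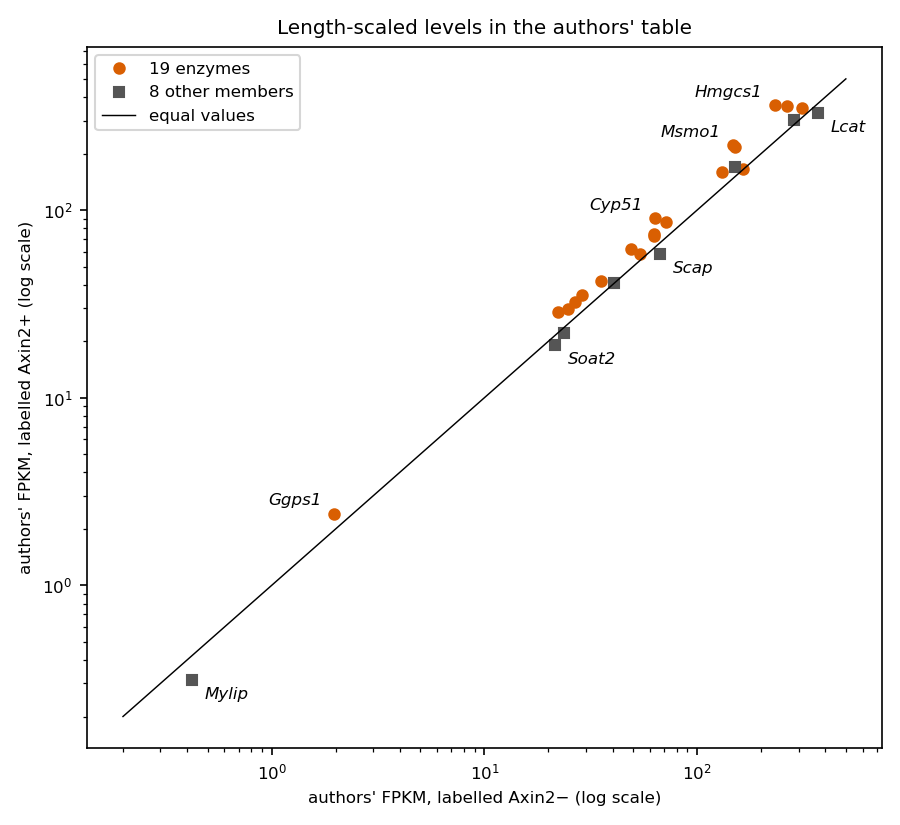
FPKM of 27 members in the authors' deposited table, summed over transcripts, in the group labelled Axin2-negative (x axis, log scale) and the group labelled Axin2-positive, with library 1 in it (y axis, log scale), with a line of equal values. All 19 synthesis enzymes (circles) lie above the line, while Lcat, Scap, Srebf2, Soat2 and Mylip (squares) lie below it. Npc1l1 is left out, being near 0.

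A further edgeR fit used only pairs 2 and 3, in which Axin2 was higher in the library labelled Axin2-positive, with the pair as a block and 1 residual degree of freedom. Since pair 1 was dropped with its small differences already known, a call here does not count as separate support. Of the 27 members it called 2 higher and 0 lower, where 3.43% of all genes were called higher and 4.01% lower. These were Fdps (log2 fold change 0.74, SE 0.15, adjusted p = 0.0472, edgeR) and Mvk (0.51, SE 0.10, adjusted p = 0.0475, edgeR), both higher in 2 of 2 pairs. Hmgcs1 (0.93, SE 0.26, adjusted p = 0.0971, edgeR) and Msmo1 (0.84, SE 0.22, adjusted p = 0.0833, edgeR) had larger differences that did not pass. Tested against a fold of 1.5, 0 members were called, where 0.791% and 0.888% of all genes were called higher and lower.

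Other genes of the pathway were read from 3 lists, 62 genes in all, of which 59 were tested. Over 6 libraries edgeR called 0 of them, as did the fit with the pair as a block. In the fit of pairs 2 and 3, 1 of 23 upstream and branch enzymes was called higher and 1 lower, 0 and 1 of 15 genes of sterol sensing, and 2 and 1 of 21 genes of uptake, trafficking and efflux. Together 3 of 59 (5.08%) were called higher and 3 (5.08%) lower, close to the 3.43% and 4.01% of all genes, so the counts do not set these lists apart, and the called genes are given as values only. Their median log2 fold changes in the fit of these pairs were 0.04, 0.02 and 0.05, compared with 0.37 for the 27 members and -0.0021 for all genes. Acly, which makes cytosolic acetyl-CoA from citrate, was lower there (-0.64, SE 0.11, adjusted p = 0.0332, edgeR), and Cyb5a, an electron donor to sterol enzymes, was higher (0.67, SE 0.10, adjusted p = 0.0287, edgeR). Srebf1, the transcription factor gene paralogous to Srebf2, was lower: it stood at 585, 260.0 and 346 CPM against 609, 495 and 507 CPM (adjusted p = 0.0409, edgeR).

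In the same fit Scarb1, the receptor for high-density lipoprotein, was lower, at 190.2, 118 and 137 CPM against 194, 231 and 193 CPM (adjusted p = 0.0483, edgeR). Nceh1, a cholesteryl ester hydrolase gene, was higher, at 23.5, 34.2 and 41.2 CPM against 24.0, 16.9 and 22.4 CPM (adjusted p = 0.00868, edgeR). Vldlr, a lipoprotein receptor gene, was also called higher (adjusted p = 0.0115, edgeR), at 0.854, 0.481 and 32.8 CPM against 1.296, 0.0124 and 5.47 CPM. The value of the library labelled Axin2-negative 2 rests on 1 read. These 6 genes had nearly equal levels in the libraries of pair 1, except Vldlr, which was lower by 0.57 on the log2 scale in the library labelled Axin2-positive 1.

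Markers of liver zones also differed within pairs 2 and 3, and those of other cell types are given beside them. The summed level of 8 pericentral hepatocyte markers was 2080.3, 15091 and 16069 CPM in libraries 1, 2 and 3 labelled Axin2-positive and 2076, 3668 and 5156 CPM in those labelled Axin2-negative. For 8 periportal markers the sums were 6474, 1774 and 3348 CPM against 6557, 7807 and 8615 CPM. In libraries 2 and 3 labelled Axin2-positive most of the pericentral sum was Cyp2e1 (11162 and 11166 CPM). Most of the periportal sum there was Pck1 (1685 and 3052 CPM). Median log2 differences were -0.005, 2.63 and 2.11 for the pericentral markers in pairs 1, 2 and 3. For the periportal markers they were -0.014, -4.51 and -3.10. The sum of all 11 Kupffer cell markers, of which 8 were tested, was 1.28 to 5.27 CPM against 4.30 to 30.1 CPM. Sums for 9 endothelial markers were 1.94 to 49.97 CPM against 5.49 to 67.4 CPM, for 8 stellate cell markers 0.253 to 4.97 CPM against 0.946 to 5.63 CPM, and for 6 bile duct markers 0.174 to 11.1 CPM against 2.71 to 11.6 CPM. For red cells 1 of 5 listed markers had a row, at 16.4 to 191 CPM against 15.7 to 199.8 CPM, both high values being in pair 2. For 3 lymphocyte markers, of which 0 were tested, the sums were 0.0253 to 0.0720 CPM against 0.0249 to 0.479 CPM. For 7 immediate-early genes of cell dissociation the sums were 1957 to 4545 CPM against 2806 to 4673 CPM. Over tested markers, median log2 differences in pairs 2 and 3 were -2.20 and -2.57 for Kupffer cells and -1.34 and -0.48 for endothelial cells. For stellate cells (3 tested) they were -0.32 and -0.30, for bile ducts (2 tested) -3.67 and -3.34, and for immediate-early genes -0.41 and -0.37. The red cell marker differed by -0.06 and 0.70. In pair 1 these values lay between -0.21 and 0.10. No marker of these lists was at 0 in all libraries. The part of these differences, and of the sex of the mice, in the levels of the cholesterol genes was not tested. In bulk samples, fewer cells of a type and less RNA per cell cannot be told apart.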

How the data were processed

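Read counts per gene symbol, deposited as whole numbers, cover 6 libraries. The authors also deposited FPKM values with p-values and q-values per transcript, with the libraries of a group combined, per the file headers. TopHat2 2.0.11, Cuffdiff 2.2.2 and mm10 are named in the submitters' processing notes. No counter or strand setting is given in the sources used here, and overlapping and antisense genes are therefore uncertain. RNA libraries were made with a stranded kit, per the labels' protocols.

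Counts were tested over all genes with the quasi-likelihood test of edgeR 4.0.16 (R 4.3.3), after filterByExpr and TMM scaling, with the group as the one term and an adjusted p under 0.05 as the call. Within-pair log2 differences use an offset of 0.05 CPM. Alternatives were DESeq2 1.42.0, limma-voom 3.58.1, other scalings and filters, a block for the pair, leaving out single libraries or pairs, and a test against a fold of 1.5. Libraries are paired by sequencing index: same-index libraries deviated together from their group means (correlations of 0.68, 0.82 and 0.76 over genes). Members with calls, the 12 with the lowest p in the block fit and the first of each role are given in every library. The members and lists were chosen with earlier results of these data known. Gene positions are from GENCODE M21 on GRCm38.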

Additional observations from a re-analysis of the deposited data

How the results depend on the processing

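Over 18 alternatives, 483 of 485 values of single members stayed on the same side of the threshold, and 13 of 27 members kept their sign in all of them, Hmgcs1, Msmo1, Fdps, Cyp51, Mvk and Mvd among these. The exceptions at the threshold were Fdps and Mvk in the fit of pairs 2 and 3. In place of 0 genes over 6 libraries, 6 were called when the library labelled Axin2-positive 1 was left out, 922 in the fit of pairs 2 and 3 with the pair as a block (2 of them members), and 208 of all genes when that fit was tested against a fold of 1.5. Leaving out pair 2 or pair 3 instead gave 0 calls. Leaving out single libraries gave 0 to 6 called genes, 0 called members, and a median log2 fold change of the members of -0.063 to 0.34. The lowest was a reversal, -0.063 without the library labelled Axin2-negative 2, and the cause was not tested. With the replicate block over 6 libraries the median was 0.25, with 0 genes and 0 members called. Genes with an unadjusted p under 0.05 in edgeR numbered 1132 with this block and 279 without it. The fits of 2 pairs were run only with the block. Depth limits Mylip and Npc1l1, with 2 to 187 and 0 to 4 reads; the other tested members had at least 419 reads in every library.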
